A study of Mus musculus with 8 samples.

Results

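Cytosolic ribosomal proteins are the protein components of the ribosomes that translate nuclear mRNAs. Their 76 genes in these data were taken from the deposited gene tables by annotation and name, as protein-coding entries called Rps or Rpl with a number, together with Rpsa, Rplp0, Rplp1 and Rplp2, out of 41457 listed genes. Of the 76 members, 30 belonged to the small subunit and 46 to the large subunit. All 76 had enough reads to be among the 12590 genes tested. The name rule itself used no measured value, but it was chosen with earlier results of these data known. RNA came from keratinocytes (KCs), the epithelial cells of the epidermis, prepared from the tail skin of adult wildtype C57BL/6 mice (C57BL/6J in the text of the study). The KCs were untreated, carried no introduced allele, and were grown in serum-free medium with little calcium for 1 week (4 samples) or 3 weeks (4 samples). The labels give the age only as adult and describe 4 independent experiments without naming animals. If the samples of a time point are not separate cultures, the p-values measure only the spread between these samples, which may be technical.

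Most ribosomal proteins bind ribosomal RNA directly, while the stalk proteins Rplp1 and Rplp2 attach through Rplp0, and proliferating cells spend much of their mRNA on this group. Many of these mRNAs begin with a run of pyrimidines, the 5′ terminal oligopyrimidine (TOP) tract, through which mTOR signalling and the protein Larp1 control their translation. When assembly is disturbed, free Rpl5 and Rpl11 bind Mdm2, the ubiquitin ligase that removes p53. The genes also have many processed pseudogenes, which are intronless genomic copies, so that reads from a ribosomal protein mRNA often align to several places.

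The start of some members is shown because the tract lies there. RefSeq promoter entries on GRCm38.p6 matched 56 of the 76 members, with 66 annotated starts. Each line gives 15 bases before the annotated start and 15 bases from it on, 5′ to 3′. Capitals mark a run of at least 5 C or T letters that opens with C within 5 bases of the start. The members shown are some of those with the largest and the smallest change, with stalk proteins and the shortest member, Rpl41, beside them.
Rps6 (chr4:86857353-86857382, minus strand): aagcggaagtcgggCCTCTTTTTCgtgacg
Rps2 (chr17:24720048-24720077, plus strand): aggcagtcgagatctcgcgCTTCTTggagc
Rpsa (chr9:120127751-120127780, plus strand): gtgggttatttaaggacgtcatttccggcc
Rplp0 (chr5:115559452-115559481, plus strand): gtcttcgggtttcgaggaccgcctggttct
Rplp2 (chr7:141447636-141447665, plus strand): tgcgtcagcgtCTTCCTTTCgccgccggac
Rpl38 (chr11:114668565-114668594, plus strand): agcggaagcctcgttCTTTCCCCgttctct
Rpl41 (chr10:128549154-128549183, minus strand): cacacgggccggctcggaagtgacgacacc
Rpl37a (chr1:72711245-72711274, plus strand): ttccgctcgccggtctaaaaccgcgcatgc

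Such a run was present at 29 of the 66 member starts (43.9%), against 17.1% of all 32851 promoter entries and 18.3% of the entries of tested genes. Runs of at least 7 letters stood at 22 member starts (33.3%), against 6.38% of the entries of tested genes. Annotated starts can lie some bases away from the true start, so an entry with no run says only that the letters are not in this window. In the full entries of 250 bases before and 50 bases after the start, on either strand, CCGGAAG occurred in 36.4% of member entries and in 17.5% of entries of tested genes. ATGGCG occurred in 28.8% of member entries against 14.6%, CACGTG in 12.1% against 9.87%, and GGGCGG in 60.6% against 62.9%. TATAAA between 40 and 16 bases before the start was found at 0 of 66 member starts and at 1.22% of the starts of tested genes. Members with a run at 1 or more of their starts (27) had a median log2 fold change, 3 weeks over 1 week, of -0.28, and the 29 without a run had -0.34.

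Total exon reads, which include reads that align to several places, numbered between 13896807 and 20026084 per sample. Between 81.6% and 84.7% of them were unique, meaning that they aligned to 1 place only. Levels are given as normalised RPKM, which are reads scaled to exon length and to library size after scaling by the trimmed mean of M-values (TMM), and changes as log2 fold changes of total exon reads from the quasi-likelihood test of edgeR, whose p-values were adjusted by the Benjamini-Hochberg method and called under 0.05. In that test 1981 of all genes were higher and 2146 lower at 3 weeks, with a median log2 fold change of 0.03. With library sizes alone, without TMM, the split was 1386 higher and 3035 lower and the median of all genes was -0.13. Basal keratin Krt14 was abundant in all samples, while Krt5 (log2 fold change -1.32, adjusted p = 0.00103) and Itga6 (-0.75, adjusted p = 0.0391) were lower at 3 weeks. Of the 9 basal markers 4 had a negative log2 fold change, and the median of the 9 was 0.11. Dsp (1.21, adjusted p = 0.238 in edgeR) and Cdh1 (0.58, adjusted p = 0.116) had the highest log2 fold changes. Of the 9 markers 0 were called higher, also at an unadjusted p under 0.05 and in DESeq2. Without 3-week replicate 3 Cdh1 and Dsp were higher and Itga6 no longer passed (adjusted p = 0.0509 in edgeR). The 6 fibroblast markers summed to between 16.9 and 34.7 CPM (reads scaled to library size), and none passed the test. The 5 leukocyte markers summed to between 0.89 and 2.88 CPM at 1 week and between 1.43 and 3.54 CPM at 3 weeks. Of these 5 only Cd207 was at 0, and Cd74, the only one tested, did not pass (adjusted p = 0.878 in edgeR). The 4 melanocyte markers summed to between 4.52 and 29.5 CPM at 1 week and between 1.54 and 6.24 CPM at 3 weeks, and of the 3 tested, Pmel was lower (-2.06, adjusted p = 0.0266, and 0.0513 without 3-week replicate 3). The part of this in the results was not tested, and in such bulk RNA fewer cells of a type and less RNA per cell cannot be told apart.

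The 3-week library of replicate 3 stood apart. It held 13.3% of its exon reads on mitochondrial genes, against 2.19% to 4.43% in the other 7 libraries, and its TMM factor of 0.853 was the lowest, the others lying between 0.965 and 1.07. The counts of members called, and the members whose call it changes, are therefore also given without it. The part of the mitochondrial share in the results was not tested.

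At 1 week the members took up 7.54%, 6.77%, 5.85% and 6.14% of the total exon reads in replicates 1 to 4. At 3 weeks they took up 3.83%, 4.71%, 6.20% and 3.65%. The mean was 6.58% ± 0.75 (SD, n = 4) at 1 week and 4.60% ± 1.16 (SD, n = 4) at 3 weeks, and without 3-week replicate 3 the latter was 4.06%. Replicate 3 at 3 weeks lay within the range of the 1-week samples, and the other 3 lay below all of them. Of the unique exon reads, the members took up 4.22%, 3.75%, 3.20% and 3.37% at 1 week and 2.05%, 2.55%, 3.41% and 1.97% at 3 weeks, which is the same order of samples within each time. With mitochondrial reads left out of the total, 3-week replicate 3 reached 7.15%, within the 1-week range of 5.99% to 7.83%.

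**Figure D1:**
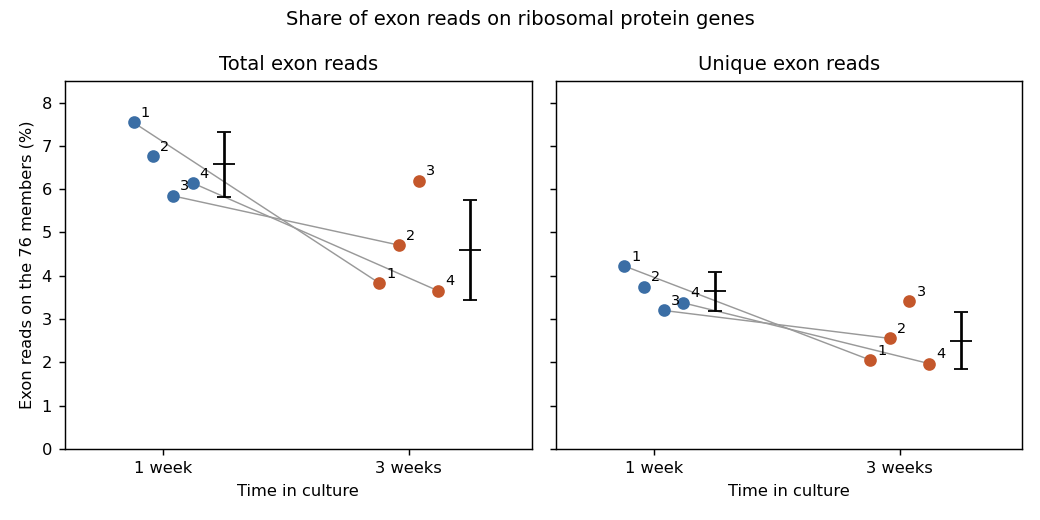
Percentage of a sample's exon reads that lay on the 76 members at 1 and 3 weeks, for total (left) and unique (right) reads. Points are samples with their replicate number, bars are means ± SD (n = 4), and grey lines join samples whose file names carry the same preparation number. Replicate 3 at 3 weeks (6.20% of total reads) lies among the 1-week samples, and the other 3-week samples lie between 3.65% and 4.71%.

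The names of the deposited files carry preparation numbers, of which 46, 49 and 90 occurred at both times and 57 only in 3-week replicate 3. Within preparation 46 the share went from 7.54% to 3.83%, all 76 members were lower at 3 weeks, and the median log2 ratio was -0.84. Within preparation 49 the share went from 5.85% to 4.71%, 66 of 76 members were lower, and the median log2 ratio was -0.15. Within preparation 90 the share went from 6.14% to 3.65%, all 76 members were lower, and the median was -0.64. The median log2 ratio of all tested genes was between -0.00425 and -0.00269 in these 3 pairs. The share of all tested genes that were lower in each pair was not counted. Each pair is 1 sample against 1, with no replicate check. The study describes the same batches of KCs at both times. Whether a shared number marks the same animals or cultures is not stated in the labels, and the test over all samples used no pairing. Over all genes the deviations of paired samples from their group means correlated at -0.23, 0.20 and 0.25 for preparations 46, 49 and 90. Between samples of different preparations these correlations ran from -0.29 to 0.42.

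Tested gene by gene over all 8 samples, few of the members passed the threshold. Lower members numbered 3, among them Rpl3 and Rps6, and no member was higher, so that 3 of 76 were called lower where 17.0% of all tested genes were, and 0 of 76 higher where 15.7% were. DESeq2 called 7 lower and 0 higher, where 19.5% and 19.3% of all genes were. At an unadjusted p under 0.05 in edgeR, 9 members were lower and 0 higher, where 22.0% and 21.7% of all genes were. The log2 fold change was nevertheless negative for 74 of 76 members (48.2% of all tested genes were negative), with a median of -0.29. No member changed 2-fold. Without 3-week replicate 3, edgeR called 63 of 76 members lower, where it called 20.8% of all tested genes. The median was then -0.55, with all 76 negative (50.4% of all tested genes were). Without 3-week replicate 1 the median was -0.20, with 66 negative and 0 called lower (12.9% of all tested genes). Without 3-week replicate 4 it was -0.17, with 65 negative and 2 called lower (18.7%). With only the 3 preparations found at both times, 37 members were called lower without a block (17.5% of all tested genes) and 7 with the preparation as a block (14.2%), with medians of -0.56 and -0.55. These 2 fits lack 3-week replicate 3 and 1-week replicate 2, so they are not separate from the omission of 3-week replicate 3.

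**Figure D2:**
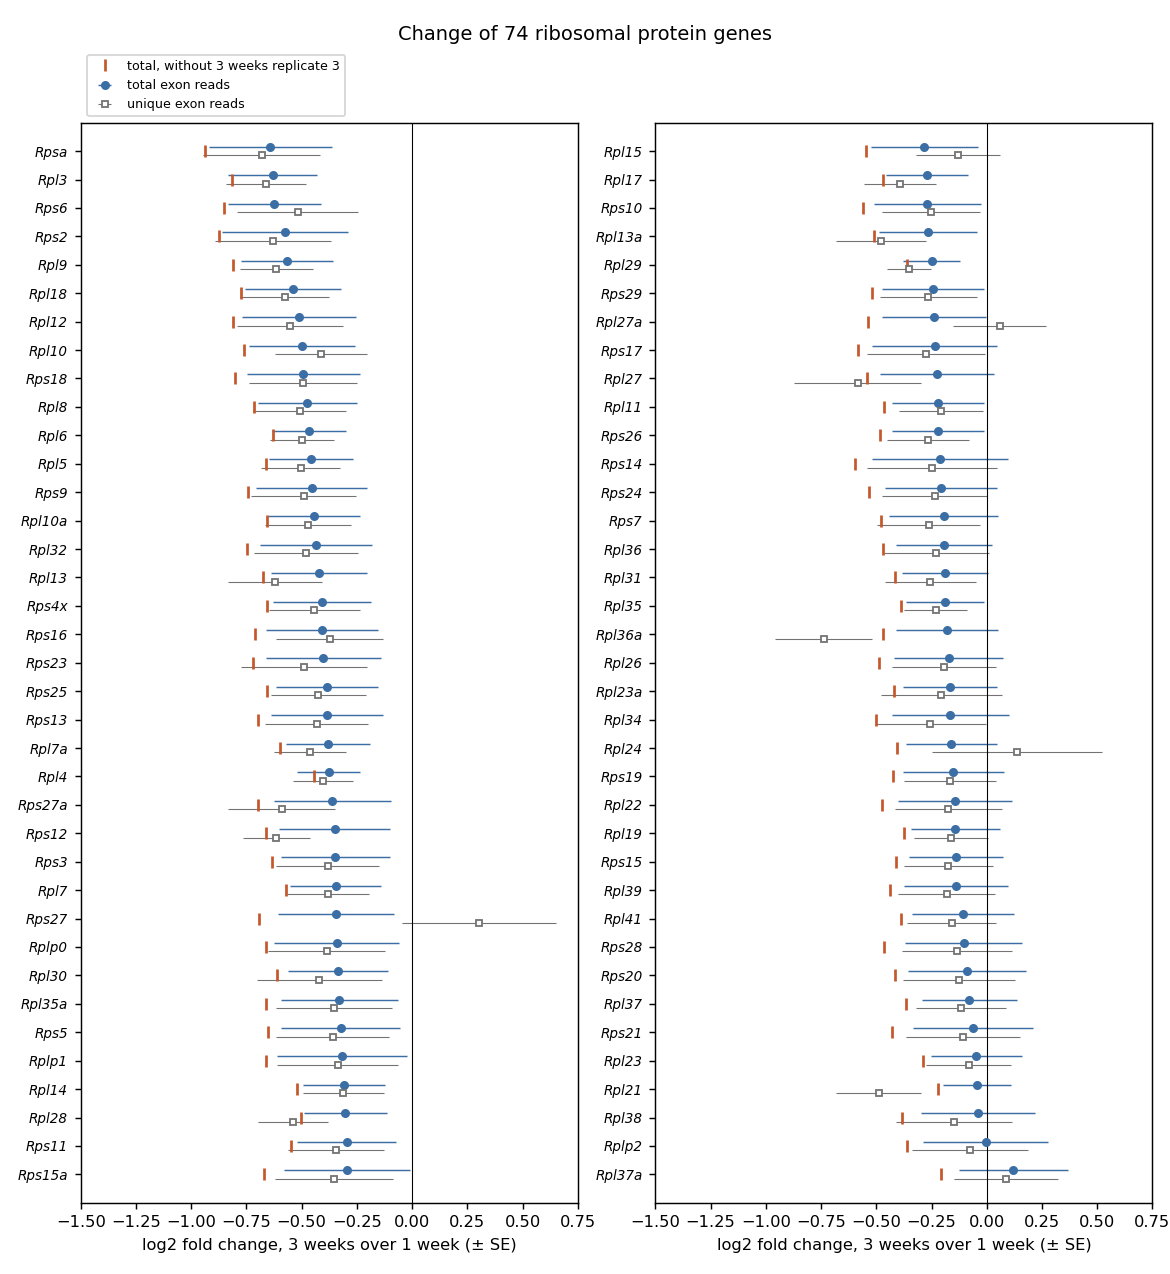
Log2 fold change, 3 weeks over 1 week, of 74 of the 76 members with its SE, ordered from the lowest (top left) to the highest (bottom right). Filled points are total exon reads, open squares unique exon reads, and vertical ticks total exon reads without 3-week replicate 3. The filled points run from -0.64 for Rpsa to 0.12 for Rpl37a, the open squares from -0.74 for Rpl36a to 0.30 for Rps27, and every tick lies left of 0.

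The samples moved together across the members. In all 76 members the highest 3-week value was that of replicate 3, in 61 the lowest was that of replicate 4, and in 73 the highest 1-week value was that of replicate 1. For 65 of 76 members the 3-week replicates 1, 2 and 4 all lay below every 1-week sample. The shares of all tested genes with these patterns were not counted, so these counts describe the members only. When replicate 3 is counted, 3 members, among them Rpl6 and Rpl4, had every 3-week sample below every 1-week sample, against 18.5% of all tested genes. Relative to the 1-week mean of each gene, the median member level on the log2 scale was 0.23, 0.02, -0.17 and -0.08 at 1 week and -0.60, -0.32, 0.31 and -0.70 at 3 weeks.

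**Figure D3:**
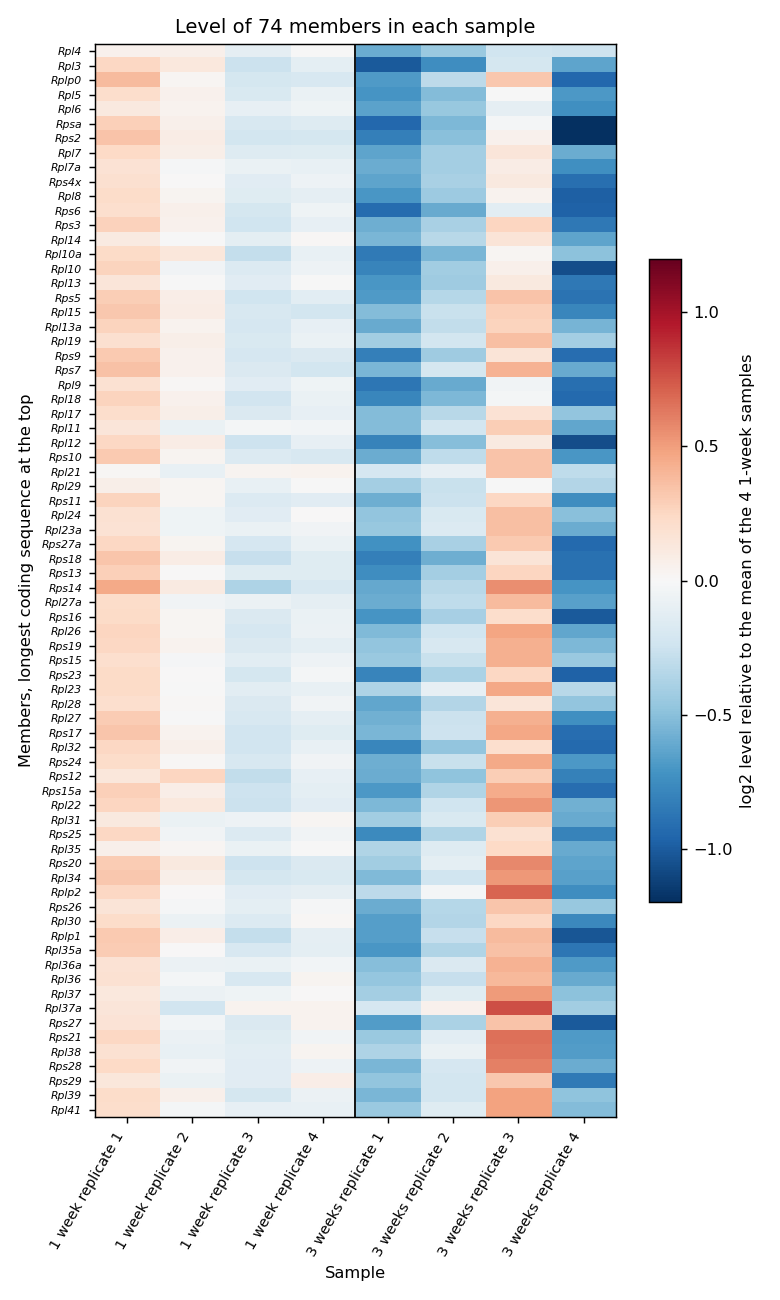
Log2 level of 74 members (rows, ordered by coding length with the longest at the top) in each of the 8 samples (columns), relative to the mean of its 4 1-week samples. The columns of 3-week replicates 1, 2 and 4 are low in nearly all rows (medians -0.60, -0.32 and -0.70), and that of replicate 3 is high in most rows (median 0.31) and near 0 or below in the rows at the top.

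Among the small subunit proteins, Rps6, at chr4:86854660-86857412, was called lower. It is the ribosomal substrate of the S6 kinases downstream of mTOR. Its level was 861, 778, 645 and 721 normalised RPKM at 1 week. At 3 weeks it was 393, 490.4, 683 and 382, with replicate 3 overlapping the 1-week samples. The log2 fold change was -0.62 ± 0.21 (SE, adjusted p = 0.0482 in edgeR), but only 0.207% of its reads were unique. These 17 to 54 unique reads per sample gave -0.52 ± 0.27 (SE, adjusted p = 0.175 in edgeR), so the call rests on reads that also align elsewhere. The call was lost in 7 of 8 fits that left out 1 sample (adjusted p between 0.0608 and 0.123 in edgeR) and with the replicate block (0.099). The log2 fold change of Rps6 without 3-week replicate 3 was -0.85 (adjusted p = 0.00421 in edgeR).

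Rpsa, also known as the laminin receptor precursor, had values of 969, 829, 694 and 716 normalised RPKM at 1 week and 413, 546, 781 and 316 at 3 weeks. Its log2 fold change of -0.64 was close to that of Rps6, but its SE was larger (0.28) and its adjusted p was 0.106 in edgeR. Without 3-week replicate 3 it was -0.94 (adjusted p = 0.0111 in edgeR). Rps2, the second most abundant member per kilobase, went from a mean of 1518 ± 292 (SD, n = 4) to 1019.5 ± 400.1 (SD, n = 4) normalised RPKM, a log2 change of -0.57 (adjusted p = 0.155 in edgeR), and without 3-week replicate 3 it was lower (-0.87, adjusted p = 0.0176).

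Of the small subunit proteins tied to inherited anaemia, Rps19 had a value of -0.15 on the log2 scale (adjusted p = 0.646 in edgeR) and Rps26 one of -0.22 (adjusted p = 0.45). Rps14 had one of -0.21 (adjusted p = 0.632 in edgeR), and X-linked Rps4x one of -0.41 (adjusted p = 0.187). For Rps3, which also has roles in DNA repair, the value was -0.35 (adjusted p = 0.313 in edgeR). Rps27a, made as a fusion with ubiquitin, had -0.36 (adjusted p = 0.327 in edgeR), and 2.24% of its reads were unique. None of these 6 passed the test over all 8 samples, and in each of them 3-week replicate 3 was within or above the range of the 1-week samples. Without that library, Rps3, Rps4x, Rps26 and Rps27a passed, while Rps14 (adjusted p = 0.0545 in edgeR) and Rps19 (0.0524) lay just above the threshold. The 30 small subunit members together had a median of -0.34, and 2 were called lower, against a median of -0.26 and 1 called lower among the 46 large subunit members.

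In the large subunit, Rpl3, which sits beside the peptidyl transferase centre, was lower at 3 weeks. It lies at chr15:80077791-80091868 and overlaps an annotated gene on the opposite strand, from which its reads cannot be told apart because strand use in counting is not given in the sources used here. Its level was 417, 383, 295 and 324 normalised RPKM at 1 week and 175, 209.9, 305 and 227 at 3 weeks. Replicate 3 at 3 weeks lay just above the lowest 1-week sample, and the other 3 lay below all. The log2 fold change was -0.63 ± 0.20 (SE, adjusted p = 0.0392 in edgeR), and unique reads, 50.8% of its total, gave -0.66 (adjusted p = 0.021). The call was lost in 6 of 8 fits that left out 1 sample (adjusted p between 0.053 and 0.104 in edgeR), with the replicate block (0.109) and with the preparation block (0.0534). For Rpl3 the log2 fold change without 3-week replicate 3 was -0.82 (adjusted p = 0.00719 in edgeR).

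The stalk proteins, which recruit the elongation factors to the ribosome, were at very different levels. Rplp1 was the most abundant member per kilobase, at 4089, 3471, 2708 and 3065 normalised RPKM at 1 week and 2086, 2715, 4292 and 1622 at 3 weeks. Rplp0 came after Rps2, with means of 1295 ± 257 and 1022 ± 409.5 (SD, n = 4 each). Rplp2 was at 271 ± 34.4 and 270.3 ± 119.8 (SD, n = 4 each). Their log2 fold changes were -0.32 for Rplp1, -0.34 for Rplp0 and -0.01 for Rplp2, none past the threshold in edgeR (adjusted p = 0.446, 0.387 and 0.991). Rplp1 and Rplp0 were lower without 3-week replicate 3 (-0.66 for both, adjusted p = 0.0396 and 0.0371 in edgeR), and Rplp2 had -0.36 (adjusted p = 0.153). In all 3 of them 3-week replicate 3 was high, and for Rplp1 and Rplp2 it was above every 1-week sample.

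Rpl5 and Rpl11, which bind Mdm2 together with 5S ribosomal RNA, had log2 fold changes of -0.46 (adjusted p = 0.0969 in edgeR) and -0.22 (adjusted p = 0.448). Rpl23, which also binds Mdm2, was at 479, 406, 373 and 384 normalised RPKM at 1 week and 317, 383, 565 and 324 at 3 weeks. Its log2 change was -0.05 (adjusted p = 0.883 in edgeR), on reads that were nearly all unique. Rpl26, which binds the p53 mRNA, had one of -0.17 (adjusted p = 0.631 in edgeR). When 3-week replicate 3 was left out, Rpl5 (-0.66, adjusted p = 0.0074 in edgeR), Rpl11 (-0.47, adjusted p = 0.0281) and Rpl26 (-0.49, adjusted p = 0.0366) were lower, and Rpl23 had -0.29 (adjusted p = 0.128). Mdm2 itself was higher at 3 weeks, with 121 ± 25.1 CPM at 1 week and 264 ± 31.6 at 3 weeks (SD, n = 4 each; log2 fold change 1.13, adjusted p = 0.0017 in edgeR). Trp53, the gene for p53 (-0.29, adjusted p = 0.137 in edgeR), and Mdm4 (-0.21, adjusted p = 0.585) did not pass.

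Other large subunit members with known roles did not pass the test over 8 samples. Rpl10, one of the last proteins to join the large subunit, had a log2 change of -0.50 (adjusted p = 0.142 in edgeR), with 1.33% unique reads. Rpl22 had -0.14 (adjusted p = 0.705 in edgeR), and Rpl38, known for its part in the patterning of the skeleton, had -0.04 (adjusted p = 0.923). Rpl41, the shortest member with 75 coding bases, had -0.11 (adjusted p = 0.759 in edgeR). In the fit that left out 3-week replicate 3, Rpl10 (-0.76, adjusted p = 0.0132 in edgeR) and Rpl22 (-0.47, adjusted p = 0.0446) were lower, while Rpl38 (-0.38, adjusted p = 0.083) and Rpl41 (-0.39, adjusted p = 0.0644) did not pass. Rpl37a had a positive value (0.12, adjusted p = 0.744 in edgeR). Rpl37a was at 279, 215, 259 and 259 normalised RPKM at 1 week and at 219, 260.02, 431 and 189 at 3 weeks, and without 3-week replicate 3 its log2 fold change was -0.21.

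The change varied with the length of the coding sequence. Across the 76 members, the log2 fold change had a Spearman rank correlation of -0.62 with coding length from GENCODE M21, and of -0.51 when unique reads were used. Members are counted in the same libraries and are not independent, so these values are descriptions. The 20 longest members (612 to 1257 coding bases) had a median log2 fold change of -0.43 and held the 3 called genes, while the 19 shortest (75 to 369 bases) had a median of -0.16. In each sample, the median log2 level of the 20 longest members minus that of the 19 shortest, both relative to the 1-week mean, was 0.02, 0.08, -0.03 and -0.06 at 1 week and -0.22, -0.23, -0.42 and -0.20 at 3 weeks. The 2 times did not overlap in this difference, and 3-week replicate 3, in which the short members were high, had the lowest value. Within preparations 46, 49 and 90 the correlation of the log2 ratio with coding length was -0.41, -0.61 and -0.09, so that it was near 0 in the last, and with the preparation as a block it was -0.40. The correlation without 3-week replicate 3 was -0.44, and the medians were -0.66 for the 20 longest and -0.46 for the 19 shortest. Among the 14 members with at least 90% unique reads it was -0.64. Length and abundance in reads go together, and the log2 fold change also had a rank correlation of -0.53 with the mean number of reads. Among the 12035 other tested genes with a coding length, the correlation was 0.02, and among the 5429 of them no longer than the longest member it was -0.04. Among 78 genes for mitochondrial ribosomal proteins, named Mrpl or Mrps, it was -0.57, so such a relation was not seen in the cytosolic members alone.

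**Figure D4:**
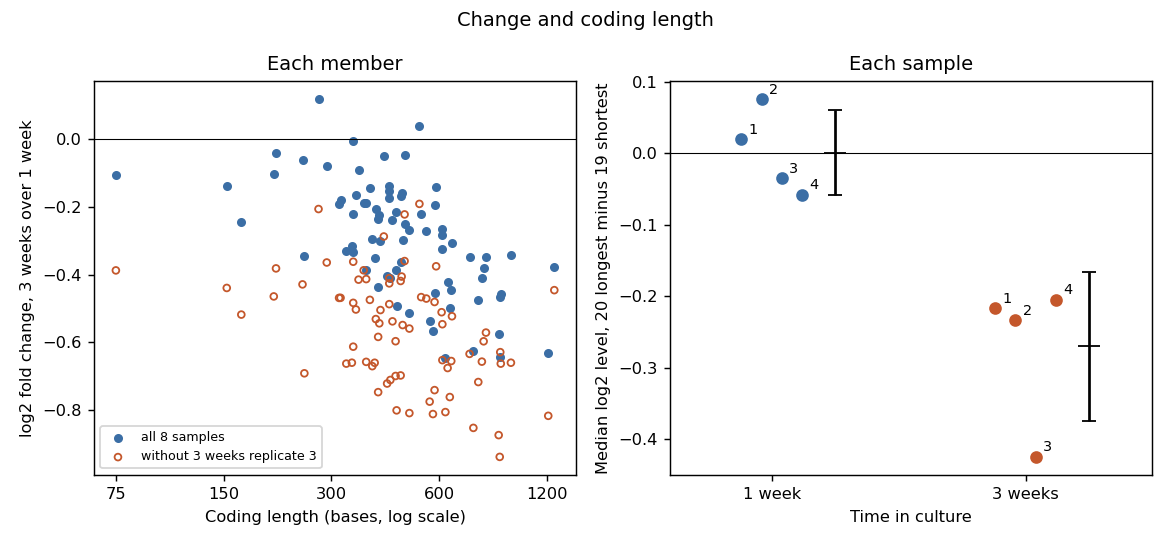
Left, log2 fold change of each member against its coding length (log scale), with all 8 samples (filled) and without 3-week replicate 3 (open); the values go down with length (Spearman -0.62 and -0.44). Right, the median log2 level of the 20 longest members minus that of the 19 shortest in each sample, with mean ± SD (n = 4); the 3-week samples lie between -0.42 and -0.20, below all 1-week samples.

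The share of unique reads differed widely between members, from 0.107% for Rpl24 and 0.207% for Rps6 to nearly all reads for Rpl8, Rps9 and Rpl23. At least 90% of reads were unique for 14 members, and under 10% for 20. With unique reads alone, edgeR called 9 members lower and 0 higher, where 18.7% and 14.8% of all tested genes were called. At an unadjusted p under 0.05 these reads gave 22 lower and 0 higher, where 24.2% and 20.3% of all tested genes were. Among the 9 were Rpl3, Rpl9, Rpl6, Rpl4, Rps12, Rpl28, Rpl29 and Rpl36a, and 2 of the 9, Rpl3 among them, were also called with total reads. The median log2 fold change was -0.35, against -0.01 for all genes tested with unique reads. Without 3-week replicate 3, unique reads gave 49 members lower, where 19.8% of all tested genes were, all of them among the 63 from total reads. The 14 members with at least 90% unique reads had a median of -0.34 with total reads, and the 20 with under 10% had -0.29, so both classes lay near the median of all members.

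Single members with few unique reads did differ between the counts. For Rps27 total reads gave a log2 fold change of -0.35 ± 0.26 (SE) and unique reads, 0.797% of its total, gave 0.30 ± 0.35 (SE). For Rpl36a the values were -0.18 ± 0.23 and -0.74 ± 0.22 (SE), the latter with an adjusted p of 0.0303 in edgeR from 40 to 145 unique reads per sample. For Rpl21 they were -0.05 ± 0.15 and -0.49 ± 0.19 (SE). Rpl24 (0.14 ± 0.38 SE with 5 to 14 unique reads per sample) and Rps23, with 0.787% unique reads, were likewise poorly placed. In total 10 members differed by more than 0.2 between the counts.

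**Figure D5:**
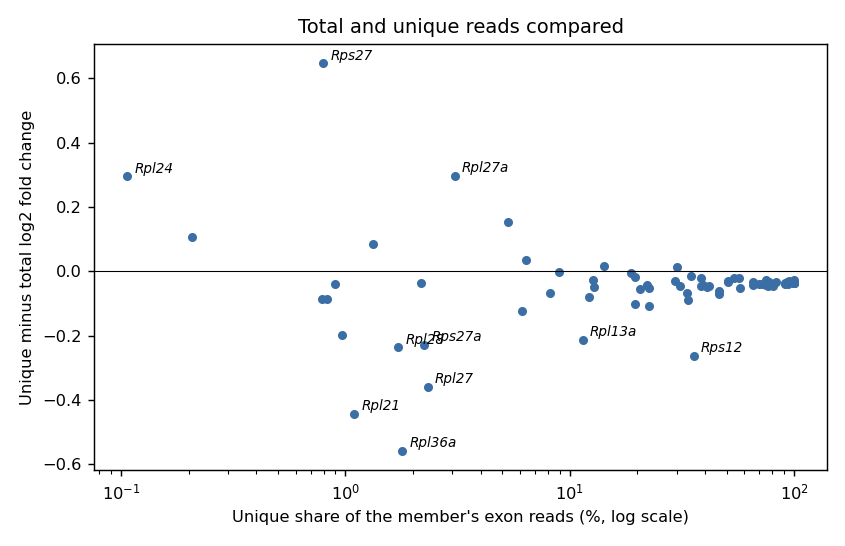
Unique minus total log2 fold change of each member (vertical axis) against the share of its exon reads that were unique (horizontal axis, log scale). Members with mostly unique reads lie near 0, and the 10 named members differ by more than 0.2, most of them with a unique share of a few percent or less.

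Levels among the members spread over 388-fold in mean normalised RPKM. Rps12 had only 139 to 448 total exon reads per sample and the lowest level (8.69 normalised RPKM at 1 week and 6.82 at 3 weeks), while the annotated copy Rps12-ps3 held 6345 to 23800 reads per sample, of which 0 were unique. Whether these reads come from Rps12 was not tested. Leaving Rps12 out, the range was 44.6-fold, from Rpl21 and Rps15a at the low end to Rplp1. Rps15a was at 74.3 ± 12.0 and 60.5 ± 27.5 normalised RPKM (SD, n = 4 each). For Rpl10, the copy Rpl10-ps3 held 3712 to 10018 reads with 1 to 4 of them unique. Exon length in these tables is that of all annotated exons together, so a member with rarely used exons appears lower than its mRNA is. The order of levels was nearly the same at both times, with a Spearman correlation of 0.98 over the 76 members, and 23 of the 100 genes with the highest mean level were members.

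Ribosomal proteins outside the name rule behaved within the same range. Rps3a1 (-0.46, adjusted p = 0.132 in edgeR), Rack1 (-0.49, adjusted p = 0.2) and Fau (-0.00, adjusted p = 0.996) did not pass, and 0 of the 4 on the list were called at an unadjusted p under 0.05 or by DESeq2. Without 3-week replicate 3, 3 of the 4 were lower, against 20.8% of all tested genes. Of 5 tested paralogs of ribosomal proteins, only Rpl7l1 was lower (-0.49, adjusted p = 0.0337 in edgeR), where 17.0% of all tested genes were. Rpl22l1 and Rpl36al had values of -0.54 and -0.58 that did not pass. Without 3-week replicate 3 all 3 were lower, against 20.8% of all tested genes. Rpl22l1 then had -0.87 (adjusted p = 0.0272 in edgeR) and Rpl36al -0.86 (adjusted p = 0.00665). Rps27l, a target of p53, had 0.11 (adjusted p = 0.791 in edgeR).

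Of 14 further mRNAs known for a TOP tract, 5 were lower and 0 higher, where 17.0% and 15.7% of all genes were, and at an unadjusted p under 0.05 these numbers were 7 and 0. DESeq2 also gave 7 and 0. Of all tested genes 22.0% were lower at an unadjusted p under 0.05 and 19.5% in DESeq2. The 5 were Hnrnpa1 (-1.65, adjusted p = 0.000473 in edgeR, with 6.36% unique reads), Npm1 (-0.82), Eef1g (-0.69), Eif3e (-0.61) and Nap1l1 (-0.57). Elongation factor Eef1a1, at 11321 ± 2062 CPM at 1 week and 9299 ± 2278 at 3 weeks (SD, n = 4 each), had -0.28 and did not pass, and Tpt1 had 0.25. The median of the 14 was -0.38, beside 0.03 for all tested genes.

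Of 10 factors that escort ribosomal proteins or load them onto the ribosome, 6 were lower at 3 weeks and 0 higher, with 6 and 0 also at an unadjusted p under 0.05 and in DESeq2. Of all tested genes 17.0% were lower, 22.0% at an unadjusted p under 0.05 and 19.5% in DESeq2. Grwd1, which escorts Rpl3, had the lowest value, with 58.5 ± 5.05 CPM at 1 week and 23.9 ± 6.00 at 3 weeks (SD, n = 4 each; log2 fold change -1.29, adjusted p = 0.00157 in edgeR). Rrs1, which brings Rpl5, Rpl11 and 5S ribosomal RNA to the pre-ribosome, had -0.98 (adjusted p = 0.000646 in edgeR). The others were Heatr3 (-0.81), Ltv1 (-0.60), Nap1l1 (-0.57) and Bop1 (-0.54). Without 3-week replicate 3, 8 of the 10 were lower, against 20.8% of all tested genes.

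Of 12 genes that control the translation of ribosomal protein mRNAs, 2 were lower and 0 higher in edgeR, near the share of 17.0% of all tested genes that were lower, with 2 and 1 at an unadjusted p under 0.05 and in DESeq2. Those lower were Eif4ebp1 (-0.69, adjusted p = 0.033 in edgeR), which holds back cap-dependent translation, and Larp1b (-0.56, adjusted p = 0.0247). Larp1 had -0.21 and Mtor 0.36, and neither passed.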

How the data were processed

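Poly(A) RNA of 8 KC samples was sequenced as single reads by the authors, who aligned them to GRCm38 in the CLC Genomics Workbench (version 12) at default settings. The annotation release, the use of strand and the placing of reads with several matches are not given in the sources used here. The deposited tables hold, per sample and gene, whole-number counts of total, unique and exon-exon junction reads without normalization, and RPKM and TPM values, written with decimal commas. No column of authors' comparisons was used. Groups and replicate numbers are those of the labels. Members, gene lists and tests were chosen with earlier results of these data known.

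Total exon read counts of all genes were tested with edgeR 4.0.16 (filterByExpr, TMM, glmQLFit and glmQLFTest) in R 4.3.3, without pairing, with Benjamini-Hochberg adjustment over all 12590 genes and a threshold of 0.05. SEs were derived from the F statistics. Normalised RPKM are reads per exon length and TMM-scaled library size. Alternatives were unique, gene and junction reads, DESeq2 1.42.0, limma 3.58.1 on log2(RPKM + 0.1) and log2(RPKM + 1) and after cyclic loess, other scalings and filters, blocks, and the omission of each sample. Junction reads, the removal of mitochondrial genes without TMM, and that of the most counted genes were added after seeing the data. So were unique reads without TMM or without 3-week replicate 3, and the shared preparations without a block. Replicates differed by a chi-square per degree of freedom of at least 15.5, so each counted once.

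Named members were the 5 highest and 5 lowest log2 fold changes, the 3 whose unique and total values differed most, the 3 highest and 3 lowest levels, the 3 lowest unique shares, and 20 with known roles. Members called with unique reads or without overlap, and those shown for their unique share, were named after their values were seen. Some genes that these rules name are not reported here. Genes of the other lists were named where they passed the test or, for a few, after their values were seen. The length classes and classes of unique share were likewise formed after the data were seen. On counts simulated for 12590 genes, recovery was 38.0% for genes simulated with a 2-fold change and 88.0% with a 4-fold change, beside 4 false calls. True changes can therefore be missed. The changed genes were drawn from all tested genes, and no smaller change was simulated. Recovery of changes such as those of most members was therefore not measured.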

Additional observations from a re-analysis of the deposited data

Results flagged for a closer look

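Of 66 groups of 4 samples that were looked at, 2 held a sample far from the other 3, where chance gives about 1 in 20. Both were 3-week replicate 3. It had 13.3% of its exon reads on mitochondrial genes, while the nearest of the other 3-week samples had 4.43%. Its median log2 level of the 20 longest members minus that of the 19 shortest was -0.42, while the nearest of the others had -0.23.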

How the results depend on the processing

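The count of lower members (3 over all samples) was 9 with unique reads, 7 with DESeq2, 25 with library sizes alone, 6 with TMM computed without the members, 24 after cyclic loess in limma, 5 without a filter, and 25 with limma on log2(RPKM + 0.1) or log2(RPKM + 1). The share of all tested genes that were lower was 17.0% over all samples, 18.7%, 19.5%, 24.1%, 18.8%, 17.4% and 10.5% in the first 6 of these settings in that order, and 24.5% in both RPKM fits. Further settings were chosen after seeing the data. Library sizes alone gave 31 with unique reads (26.0% of all tested genes lower). With total reads and mitochondrial genes left out, library sizes alone gave 9 (21.3%), beside the 25 with these genes kept. Unique reads without 3-week replicate 3 gave 49 (19.8%). The shared preparations without a block, which also lack 3-week replicate 3, gave 37 (17.5%). Leaving out 1 sample at a time gave 0 to 63 lower members. The highest count came without 3-week replicate 3 (20.8% of all tested genes lower) and the lowest without 3-week replicate 1 (12.9%). The count was 1 without 1-week replicate 1, 2 or 4 or 3-week replicate 2, where 12.7% to 14.3% of all tested genes were lower. No setting gave a higher member, and the median log2 fold change of the members stayed negative in all 29 settings. All genes higher numbered 1313 and 1281 in the limma fits on RPKM, 1239 with unique reads and library sizes alone, 1197 with junction reads, and 1371 to 2284 with 1 sample left out. The mean share on members was 3.64% at 1 week and 2.50% at 3 weeks with unique reads.

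Samples with the same replicate number correlated at -0.23 to 0.25 in their deviations from the group means. Replicates 1 and 4 carried the same preparation number at both times (46 and 90), while replicates 2 and 3 did not. The correlations cannot settle whether replicate numbers mark pairs. With the replicate block 0 members were lower, where 12.4% of all tested genes were, and 1309 genes were higher. With the preparation block, which also leaves out 3-week replicate 3, 7 members were lower, where 14.2% of all tested genes were, and 1316 genes were higher. No member was called at an adjusted p under 0.05 with the replicate block in edgeR.

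Some log2 fold changes changed sign. Rps27 had 0.30 with unique reads and 0.13 with these and library sizes alone. Rpl24 had 0.14 with unique reads and 0.0606 with these without 3-week replicate 3. Rplp2 had 0.0213 with junction reads. With 1 sample left out, Rpl41 ranged from -0.39 to 0.0122, Rpl23 from -0.29 to 0.0484, Rpl21 from -0.22 to 0.0322, Rpl38 from -0.38 to 0.12, Rplp2 from -0.36 to 0.18, and Rpl37a from -0.21 to 0.26. Rpl37a had -0.0674 with library sizes alone, -0.0114 after cyclic loess, -0.11 in both limma fits on RPKM, -0.29 with the preparation block, -0.28 in the shared preparations, -0.0844 with unique reads and library sizes alone, and -0.17 with unique reads without 3-week replicate 3. The cause of these changes was not tested. Members with under 1% unique reads are limited by the few unique reads behind their values.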
